A study of Mus musculus with 12 samples.

Results

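Myc, Mycn and the other genes of the Max network were followed in the embryonic pancreas of mice that lacked β-catenin in the pancreatic lineage. The network was taken as 10 named genes, Myc, Mycn, Mycl, Max, Mxd1, Mxd3, Mxd4, Mxi1, Mnt and Mga, and every probe set that carries 1 of these symbols alone was used. This gave 27 of 45037 probe sets, between 1 (Myc and Max) and 5 (Mga) for each gene. The pancreata came from embryos of matings between Pdx1Cre/+; β-catenin flox/+ mice. The groups were 4 β-catenin KO pancreata at E14.5 (KO_540C, KO_540G, KO_615A and KO_615B) and 2 wildtype pancreata of that day (WT_522B and WT_522C), and 4 KO pancreata at E16.5 (KO_541J, KO_541L, KO_591C and KO_591D) and 2 wildtype pancreata of that day (WT_622A and WT_628G). In the KO a Cre recombinase driven by Pdx1, a gene of the pancreatic epithelium, deleted a floxed part of both β-catenin alleles. Cre was probably mosaic and does not reach the mesenchyme, nerves, vessels and blood cells that whole pancreata also contain. Each pancreas was hybridised to its own Affymetrix MOE430 2.0 array. Each value is a ratio to the mean wildtype signal of that day, with 1 as the mean. Abundance and the course of a transcript over time are thus not known. For the same reason the presence of pancreatic markers could not be checked as a level. In whole organs, fewer cells of a type and less RNA per cell cannot be told apart.

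Myc, N-myc (Mycn) and L-myc (Mycl) are transcription factors that bind DNA only as a pair with Max, and they drive genes of ribosome production, metabolism and cell division. The Mxd proteins, Mxi1 and Mnt pair with Max too, compete for the same E-box letters, and recruit Sin3 and histone deacetylases to repress the genes that Myc turns on. Mga also pairs with Max and carries a second DNA-binding domain of the T-box kind. Myc and Mycn are known targets of Wnt signaling through β-catenin and TCF in several tissues, and Myc is needed for the growth of the exocrine pancreas in mice.

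The promoter of Mycn is shown because Mycn was the member with the lowest values at E14.5 and is a candidate target of β-catenin. Its 250 bases before the annotated start lie on the minus strand at chr12:12941837-12942086 (RefSeq, GRCm38.p6). Capitals mark the letters CTTTGA, found in many TCF sites and read here on the other strand as TCAAAG, and the letters TTTGGCGC, found in E2F sites.

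Mycn promoter: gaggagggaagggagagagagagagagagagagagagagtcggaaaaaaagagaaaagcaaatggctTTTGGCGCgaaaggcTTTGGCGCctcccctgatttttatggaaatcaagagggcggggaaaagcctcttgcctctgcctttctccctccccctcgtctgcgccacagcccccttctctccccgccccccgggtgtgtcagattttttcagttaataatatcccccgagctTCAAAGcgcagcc

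The CTTTGA match begins 13 bases before the start, and the TTTGGCGC matches begin 183 and 168 bases before it. Of 32851 mouse promoters of this length, 13.8% hold CTTTGA and 0.417% hold TTTGGCGC on either strand. Both motifs were sought in the 11 promoter entries of 9 member genes, and the Mycn promoter alone held them. The E-box letters CACGTG, which Myc and Mxd proteins bind with Max, stand in 6.02% of promoters and in those of Mxd4 and Mnt among the members. The 30 bases around them are shown with the E-box in capitals, at chr5:34187912-34187941 (minus strand) for Mxd4 and chr11:74830789-74830818 (plus strand) for Mnt.

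Mxd4 promoter: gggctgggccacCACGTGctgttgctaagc
Mnt promoter: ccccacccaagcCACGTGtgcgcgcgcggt

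The E-box begins 219 bases before the Mxd4 start. For Mnt it begins 123 bases before the start of this promoter entry, chr11:74830924, which lies 118 bases inside the annotated gene, and 5 bases before the first base of the gene. These are matches of letters, and binding was not measured.

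The first question was which members of the network differed between KO and wildtype pancreata of the same day. None of the 27 member probe sets passed at E14.5, at E16.5 or in the difference between the days at a limma adjusted p under 0.05, where 0.0111%, 2.62% and 0.349% of all probe sets passed. At an unadjusted p under 0.05 there were 3 members at E14.5 (Mycn and Mxi1 lower, Mxd3 higher), 3 at E16.5 (Myc lower, Mxd3 and Mnt higher) and 1 between the days (Mycn), against 6.86%, 16.6% and 10.4% of all probe sets. By direction these shares were 4.52% lower and 2.34% higher at E14.5, 8.16% lower and 8.48% higher at E16.5, and 5.04% lower and 5.32% higher between the days. The members were thus no more often past this limit at E16.5 than the array as a whole. All 4 KO lay under both wildtype on 3 members at E14.5 (8.06% of all probe sets) and over both on 2 (8.17%), and at E16.5 on 3 (11.1%) and 5 (14.5%). A lower log2 fold change of any size was found on 8 of 27 at E14.5 (44.6% of all probe sets), against 15 of 27 for the later day (43.9%). Over the members the median log2 fold change was 0.087 for the earlier day and -0.020 for the later, beside 0.019 and 0.027 for all probe sets. In the plot of all 27 probe sets most members lie close to the wildtype mean, and Myc at both days and Mycn at E14.5 reach lower. In single KO, Mga 1434746_at does so too, at a log2 ratio of -1.20 in KO_540G at E14.5 and -0.85 in KO_591D at E16.5.

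**Figure D1:**
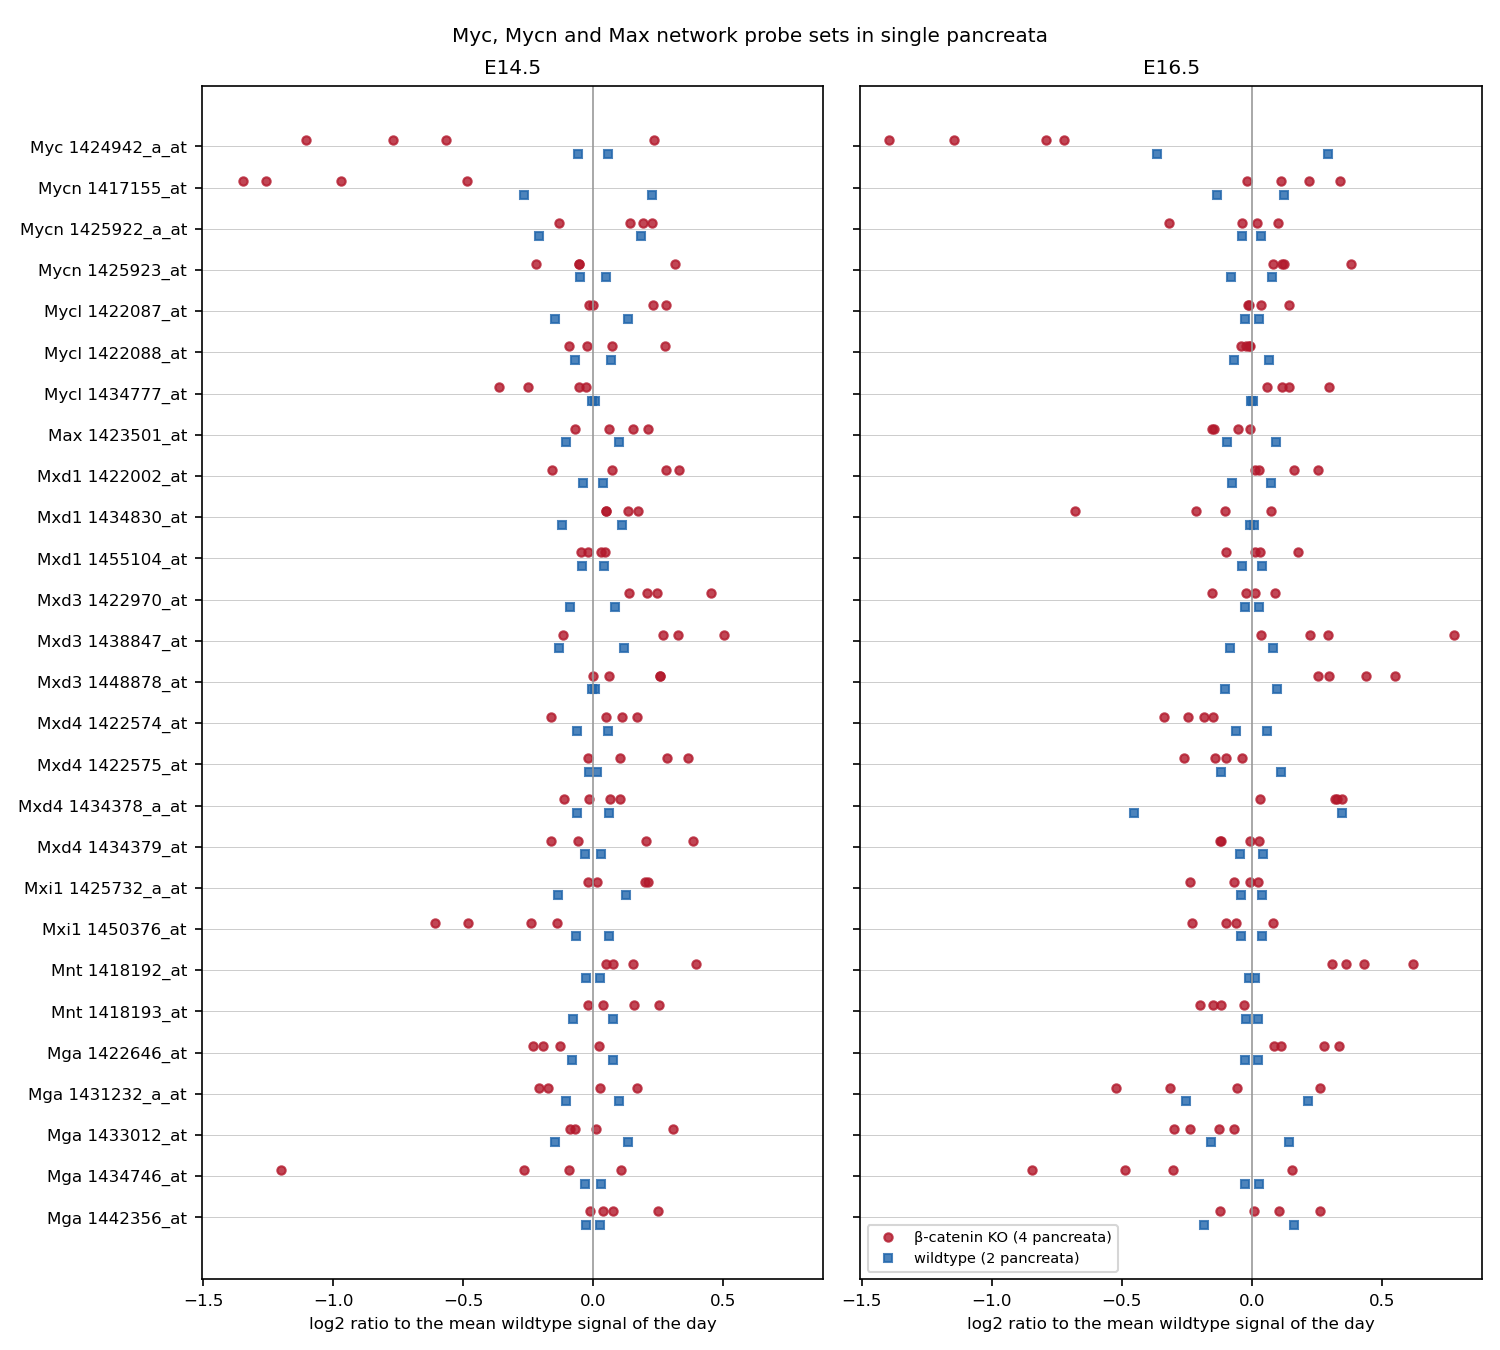
Log2 ratio to the mean wildtype signal of the day (x axis) of the 27 member probe sets (rows) at E14.5 and E16.5, with 1 point for each of 4 KO (red circles) and 2 wildtype (blue squares) pancreata. Myc and 1 Mycn probe set reach the lowest KO values, and Mga 1434746_at reaches -1.20 in KO_540G at E14.5. The points of most other members lie near 0.

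Mycn (chr12:12936093-12941836, GRCm38.p6) has 3 probe sets. On 1417155_at the E14.5 ratio was 0.394 in KO_540G, 0.418 in KO_615B, 0.511 in KO_540C and 0.714 in KO_615A, against 0.832 and 1.17 in the wildtype pancreata. Every KO was thus under both wildtype, and KO_615A was the nearest to them. The log2 fold change was -0.99 (standard error 0.22, 95% confidence interval -1.48 to -0.51), with an unadjusted p of 0.000779 that ranked 85 of 45037 probe sets and a limma adjusted p of 0.406. Over 20 alternatives the log2 fold change lay between -1.24 and -0.75 and the limma adjusted p between 0.0799 and 1. It was also the 1 member with a ratio under 0.66 in at least 3 of the 4 KO at E14.5, which 1.06% of all probe sets met.

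The same Mycn probe set gave another picture at E16.5, with ratios of 1.26 in KO_541J, 0.988 in KO_541L, 1.08 in KO_591C and 1.17 in KO_591D, against 0.911 and 1.09 in the wildtype pancreata. The groups overlapped and the log2 fold change was 0.17 (limma adjusted p = 0.798). The authors report a decrease of N-myc at both days, which this probe set did not show at E16.5. The KO effect at E16.5 exceeded that at E14.5 by 1.16 in log2 (95% confidence interval 0.48 to 1.85, unadjusted p = 0.00305 from limma, adjusted p = 0.173). It was the single member with an unadjusted p under 0.05 in this comparison.

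The other Mycn probe sets did not show the low values of E14.5. On 1425922_a_at the KO ratios ran from 0.912 to 1.17 with a median of 1.12, against 0.864 and 1.14 in wildtype, and on 1425923_at from 0.860 to 1.24 with a median of 0.962, against 0.966 and 1.03. In log2 they differed from wildtype by 0.12 and -0.00 at the earlier day and by -0.06 and 0.18 at the later (limma adjusted p = 0.617 to 0.999). The 95% confidence intervals of these probe sets at E14.5, -0.21 to 0.44 and -0.31 to 0.31, do not reach the estimate of -0.99 from 1417155_at. Which part of the Mycn transcript each probe set reads is not known here, and ratios do not show how dim a probe set is. On these arrays the lower value at E14.5 thus rests on 1 of 3 probe sets. The authors report less N-myc in the KO at E14.5 by quantitative RT-PCR as well.

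Myc (chr15:61985341-61990361), the founding member of the family, has 1 probe set. At E14.5 its ratio was 0.465 in KO_540G, 0.586 in KO_615B, 0.676 in KO_540C and 1.18 in KO_615A, against 0.960 and 1.04 in the wildtype pancreata. KO_615A lay over both wildtype and the other KO under both. The log2 fold change was -0.55 with a standard error of 0.32 (adjusted p = 0.810 from limma).

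At E16.5 Myc was at 0.452 in KO_541J, 0.380 in KO_541L, 0.606 in KO_591C and 0.577 in KO_591D, against 1.22 in WT_622A and 0.776 in WT_628G. No KO reached the lower wildtype. The log2 fold change was -0.98 (standard error 0.32, 95% confidence interval -1.67 to -0.28, unadjusted p = 0.0100 from limma, adjusted p = 0.136). The wildtype pancreata differed from each other by 0.66 in log2, and the fold change was -0.65 without WT_622A and -1.31 without WT_628G. The limma adjusted p ranged from 0.0546 to 0.788 over 20 alternatives. Between the days the Myc effect differed by -0.43 in log2 (95% confidence interval -1.41 to 0.56, limma adjusted p = 0.849). The interval holds 0 as well as changes of either sign, so whether the Myc effect grew with age cannot be read from these arrays. The authors, under their own criteria, report no change of c-myc by array or quantitative RT-PCR. No call was made here either, although the KO values at E16.5 lay lower.

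**Figure D2:**
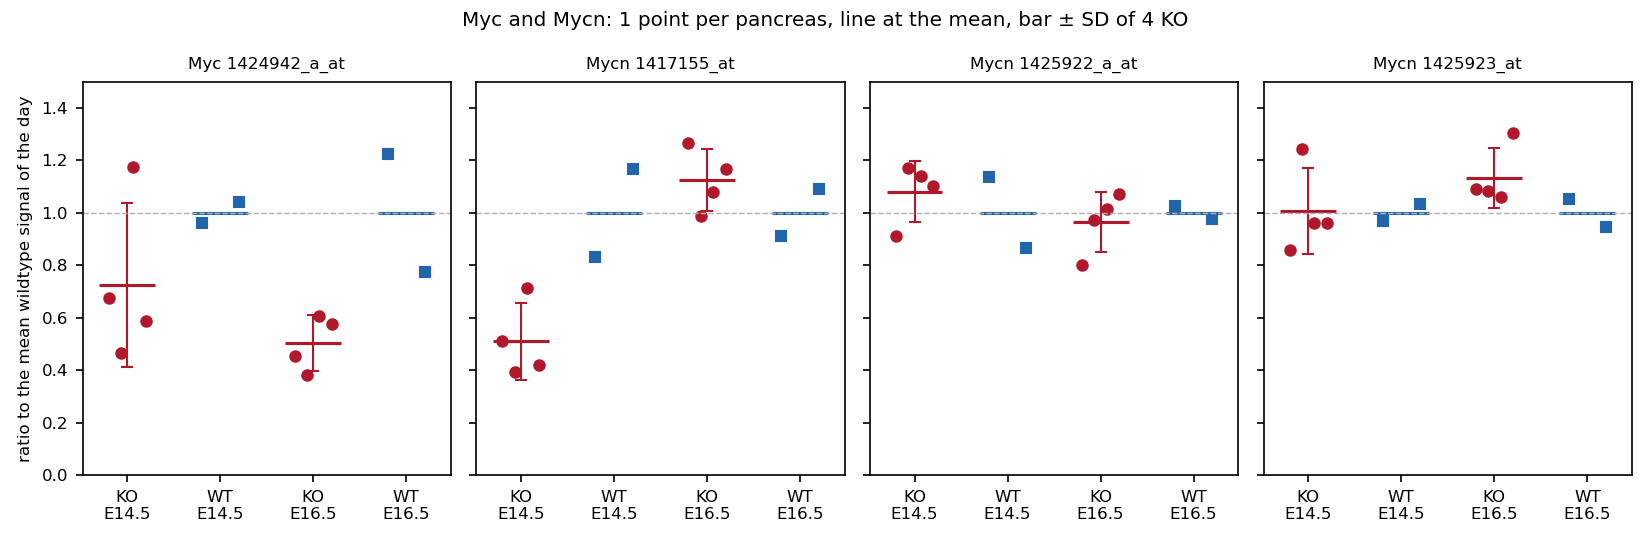
Ratio to the mean wildtype signal of the day (y axis) of Myc and the 3 Mycn probe sets, 1 point per pancreas, in KO (red) and wildtype (blue) at E14.5 and E16.5. Lines mark group means, and bars on the 4 KO give the SD. Mycn 1417155_at is at 0.509 ± 0.146 in the E14.5 KO and 1.12 ± 0.118 in the E16.5 KO, while Myc is at 0.725 ± 0.312 and 0.504 ± 0.106.

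Mycl, the third Myc gene (chr4:122995588-123002490), also has 3 probe sets. On 1434777_at the E14.5 ratios were 0.962, 0.840, 0.777 and 0.981 in KO_540C, KO_540G, KO_615A and KO_615B, all under the wildtype values of 0.996 and 1.004. At E16.5 they were 1.10, 1.23, 1.08 and 1.04 in KO_541J, KO_541L, KO_591C and KO_591D, all over the wildtype values of 0.999 and 1.001. The log2 fold changes were -0.17 and 0.15, and their difference of 0.33 had an unadjusted p of 0.0608 and a limma adjusted p of 0.517. The other probe sets had log2 fold changes between -0.02 and 0.13 over the 2 days. Max, the partner that all members share (chr12:76937269-76962323), had KO ratios of 0.953 to 1.16 with a median of 1.08 at E14.5, against 0.930 and 1.07 in wildtype. At E16.5 they were 0.898 to 0.996 with a median of 0.934, against 0.935 and 1.06. Its log2 fold changes were 0.09 (95% confidence interval -0.15 to 0.33) and -0.09 (-0.33 to 0.15), intervals that leave out a change as large as those estimated for Myc at E16.5 and Mycn at E14.5.

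Among the partners that repress, Mxd3 (chr13:55325170-55329900), which in mice is expressed in dividing cells, stood on the higher side in most probe sets. On 1422970_at the E14.5 ratios were 1.10 in KO_540C, 1.15 in KO_615A, 1.19 in KO_540G and 1.37 in KO_615B, against 0.939 and 1.06 in wildtype (log2 fold change 0.26 with a standard error of 0.11, adjusted p = 0.688 from limma). That probe set was at -0.02 in log2 at E16.5. On 1448878_at the KO ratios at E16.5 were 1.35 in KO_541J, 1.47 in KO_541L, 1.23 in KO_591C and 1.19 in KO_591D, against 0.931 and 1.07 in wildtype. All 4 were over both wildtype, with a log2 fold change of 0.39 (adjusted p = 0.109 from limma, standard error 0.12). At E14.5 it was 0.14. The remaining Mxd3 probe set, 1438847_at, lay higher by 0.25 and 0.33 in log2, with 1 KO between the wildtype values at each day. For Mxd3, 3 of 3 probe sets thus had a positive log2 fold change at the earlier day and 2 of 3 at the later, without a call. Mxd1 gave the same counts, so they do not set Mxd3 apart. Of all 27 member probe sets, 19 were positive at the earlier day and 12 at the later. Over the whole array, 44.6% and 43.9% of probe sets were lower.

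Mxd1 (chr6:86647044-86669234), a factor of differentiating cells, had log2 fold changes of 0.00 to 0.13 at E14.5 and -0.23 to 0.12 at E16.5 over 3 probe sets, each with overlapping groups. Mxi1 (chr19:53310128-53373293), also called Mxd2, gave different values on its probe sets. On 1450376_at the E14.5 ratios were 0.846, 0.716, 0.907 and 0.656 in KO_540C, KO_540G, KO_615A and KO_615B, against 0.956 and 1.04 in wildtype (log2 fold change -0.37 with a standard error of 0.14, adjusted p = 0.641 from limma). On 1425732_a_at the log2 fold change was 0.11, and at E16.5 both were within 0.08 of 0. Of 4 probe sets of Mxd4 (chr5:34176580-34187710), all had a positive log2 fold change at E14.5, of 0.01 to 0.18. At E16.5 3 were negative (-0.23 to -0.06) and 1434378_a_at was positive at 0.31. On that probe set the wildtype pancreata were at 0.730 (WT_622A) and 1.27 (WT_628G), a gap wider than the KO range of 1.02 to 1.27. Its log2 fold change was 0.71 without WT_628G (limma adjusted p = 0.0445) and -0.09 without WT_622A, so 1 wildtype array decided its sign.

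Mnt (chr11:74830806-74845725), the repressor that is made in resting and dividing cells alike, came nearest to a call by adjusted p. On 1418192_at the E16.5 ratios were 1.35 in KO_541J, 1.54 in KO_541L, 1.28 in KO_591C and 1.24 in KO_591D, against 1.01 and 0.992 in wildtype, groups that were well apart. The log2 fold change was 0.43 (standard error 0.12, limma adjusted p = 0.0822), and at E14.5 all 4 KO were over both wildtype as well, with 0.17 (limma adjusted p = 0.865). It was called at E16.5 with array weights (0.45) and without KO_591D (0.47) or KO_540G (0.43), with limma adjusted p values of 0.0329 to 0.358 over 20 alternatives. The second probe set, 1418193_at, ran the other way at E16.5, with KO ratios of 0.870 to 0.978, all under the wildtype values of 0.984 and 1.02 (log2 fold change -0.13, limma adjusted p = 0.623). The direction of Mnt at E16.5 therefore depends on the probe set.

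Mga (chr2:119872503-119970129) has 5 probe sets, whose log2 fold changes ran from -0.36 to 0.09 at E14.5 and from -0.37 to 0.20 at E16.5. The widest spread was on 1434746_at, with 1.08, 0.435, 0.832 and 0.938 in KO_540C, KO_540G, KO_615A and KO_615B against 0.979 and 1.02 in wildtype. KO_540G alone was far below the rest, and without it the log2 fold change was near 0 (-0.08, against -0.36 with it). At E16.5 that probe set ran from 0.556 in KO_591D to 1.11 in KO_541L. On 1422646_at the 4 KO were over both wildtype at E16.5 (1.06 to 1.26 against 0.983 and 1.02, limma adjusted p = 0.398).

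**Figure D3:**
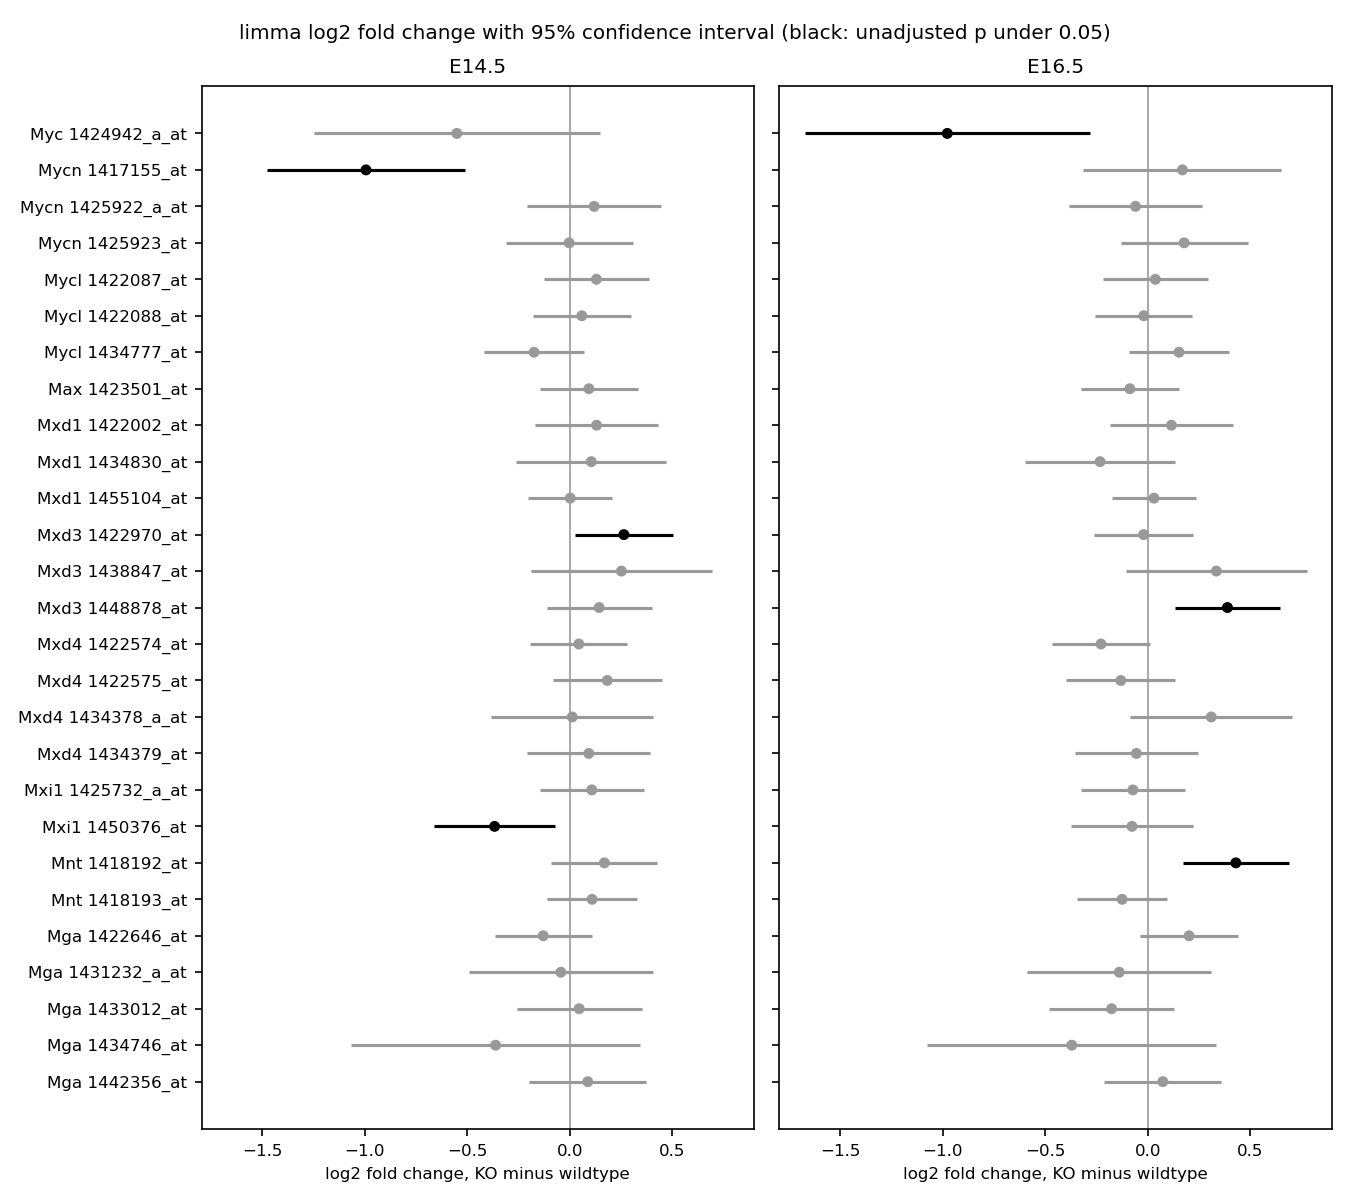
limma log2 fold change, KO minus wildtype, with its 95% confidence interval (x axis) for the 27 member probe sets (rows) at E14.5 and E16.5. Black marks an unadjusted p under 0.05, met by 3 members at each day. The estimates run from -0.99 to 0.26 at E14.5 and from -0.98 to 0.43 at E16.5.

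The genes whose pattern over the 12 arrays was most like that of Myc were Tspan12, a tetraspanin, Hipk2, a nuclear kinase, and Ap1m2, an epithelial clathrin adaptor subunit, with root mean square differences of 0.146, 0.151 and 0.160 in log2. Myc itself departed from the wildtype mean by 0.754 on this measure. Their log2 fold changes at E16.5 were -0.95, -0.89 and -0.88. For Mycn 1417155_at they were Hhip, an inhibitor of hedgehog ligands, Hars2, a mitochondrial tRNA synthetase, and Rad54b, a DNA repair protein, at 0.230, 0.242 and 0.244, where Mycn departed by 0.639. Hhip had a log2 fold change of -1.02 at E14.5 and of 0.08 at the later day. The neighbours of the other Mycn probe sets, Atcayos, Cgn and Styk1 for 1425922_a_at and Scara5, Golga7b and Rfx2 for 1425923_at, stayed within 0.19 of 0 in log2 fold change. These likenesses are descriptions over arrays of 2 days and 2 genotypes. The neighbours were picked on these same values, so their like fold changes follow from the choice.

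Genes that work with the network were read on 1 probe set each, chosen by its name. Over all 18193 named genes 47% were lower for the earlier day and 42.5% for the later, and 0.0165% and 3.03% passed the limit. None of the coactivators of Myc, corepressors of the Mxd proteins, regulators of Myc stability or relatives of Mlx passed at either day. Of 14 measured coactivators 10 were lower at the earlier day and 9 at the later (5 without WT_622A, where the median turned to 0.162 against -0.066), led by Actl6a, a subunit of chromatin remodelling complexes, at 0.564 ± 0.242 (SD, n = 4) at E14.5, and by Smarcb1, a subunit of one such complex, at 0.722 ± 0.0834 at E16.5 (limma adjusted p = 0.670 and 0.0875). Of 9 corepressors 6 were lower at the earlier day and 3 at the later. The deacetylase Hdac1 was at 0.824 ± 0.0849 at E14.5 (adjusted p = 0.696 from limma) and at 1.35 ± 0.144 at E16.5 (adjusted p = 0.0908). Of 12 regulators of stability 7 were lower at the earlier day and 5 at the later, with medians of -0.042 and 0.037. These turned to 0.011 without KO_540G at E14.5, and to -0.066 without WT_628G or -0.017 without KO_541L at E16.5. Among them Skp2, an F-box protein that marks Myc for degradation, was at 0.536 ± 0.268 at E14.5, and Huwe1, a ubiquitin ligase of the Myc proteins, was at 0.700 ± 0.109 at E14.5 and, by E16.5, at 0.578 ± 0.0618 (limma adjusted p = 0.641, 0.650 and 0.0687). Mlx, the Max-like partner of glucose-sensing factors, was at 0.711 ± 0.0798 at E16.5 (limma adjusted p = 0.0565), and 4 of 5 genes of its branch and Myc paralogs were lower at that day.

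Listed targets of Myc were mostly lower at E14.5, although none of them passed the limit there. Of 20 nucleolar and ribosome production genes 18 were lower, with a median log2 fold change of -0.452 beside 0.011 for all genes, of which 47% were lower. Of the 20, 7 were lower at an unadjusted limma p under 0.05, beside 4.52% of all probe sets. Gnl3, a nucleolar GTPase of dividing cells, was at 0.545 ± 0.158 and Mybbp1a, a nucleolar protein that binds Myb, at 0.682 ± 0.139 (SD, n = 4, limma adjusted p = 0.522 and 0.637). In the list of metabolism and translation 18 of 20 measured were lower as well (median -0.337), with Shmt1, a serine hydroxymethyltransferase, at 0.597 ± 0.292 and Apex1, a DNA repair nuclease, at 0.577 ± 0.243. Of 11 cell cycle targets 7 were lower (median -0.129), led by Cks1b, a subunit of cyclin-dependent kinases, at 0.708 ± 0.119. Of 17 measured proliferation genes 15 were lower (median -0.456), with the kinase Cdk1 at 0.650 ± 0.155. Of 11 genes that Myc represses in other cells, 4 were lower (median 0.063). The ribosome list moved with 1 pancreas: without KO_540G its median was -0.211, with 18 of 20 lower still, and the median of metabolism and translation was -0.224 with 18 of 20.

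At E16.5 13 of 20 ribosome genes were lower, with a median of -0.132 that ran from -0.218 without WT_628G to -0.025 without WT_622A, and was -0.031 without KO_541L and -0.213 without KO_591C. With the mean of each gene's probe sets it was -0.052, with 10 of 20 lower. Of the metabolism and translation genes 15 of 20 were lower with a median of -0.424, or -0.267 without WT_622A. Ahcy, which clears the by-product of methylation, fell to 0.402, 0.414, 0.479 and 0.600 in KO_541J, KO_541L, KO_591C and KO_591D, against 1.22 in WT_622A and 0.776 in WT_628G (log2 fold change -1.06 with a standard error of 0.21, adjusted p = 0.0235 from limma). It was lower in 4 of 4 KO, and its call ended without WT_622A, KO_541J or KO_541L (limma adjusted p up to 0.179). It also ended under 4 of 8 other settings, with an adjusted p of up to 0.527. Cad, the first enzyme of pyrimidine synthesis, fell on 1 of its 3 probe sets (1452830_s_at, log2 fold change -0.92, limma adjusted p = 0.0430), a call kept in 3 of 12 fits with 1 array left out and 3 of 7 other settings, and was at 0.16 and -0.11 on the others. Srm, which makes spermidine, was at 0.468 ± 0.117 (SD, n = 4, limma adjusted p = 0.0784), and Odc1, the first enzyme of polyamine synthesis, at 0.666 ± 0.166 (limma adjusted p = 0.152). Among the cell cycle targets 2 of 11 were lower (median 0.124), but 8 of 11 without WT_628G (median -0.05), so 1 wildtype array decided the direction. Without WT_622A the median was 0.295 and without KO_591C 0.04. One of the lower genes, the phosphatase Cdc25a, fell to 0.657 ± 0.0642 on 1417131_at (limma adjusted p = 0.0469), a call kept in 4 of 12 fits with 1 array left out and 3 of 8 other settings, and its other probe sets were at -0.37 and -0.09 in log2.

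Of the genes that Myc is known to repress, Ndrg1 and Clu passed the limit at E16.5. Ndrg1, a gene of stress response and differentiation that MYC represses in human cells, was at 0.424, 0.334, 0.429 and 0.494 in KO_541J, KO_541L, KO_591C and KO_591D on 1423413_at, against 0.931 and 1.07 in wildtype. It fell by 1.26 in log2 (standard error 0.14, limma adjusted p = 0.00135), in 4 of 4 KO. Of its 5 probe sets 4 passed, with log2 fold changes of -1.55 to -1.15, and each of these 4 passed in 12 of 12 fits with 1 array left out. Under the other settings 1423413_at passed in 7 of 8, 1450976_at in 5 of 8, 1456174_x_at in 5 of 7 and 1420760_s_at in 4 of 7. All 4 missed the limit under the test that the methods name, with equal variances and no moderation. The other losses came with quantile normalization (1450976_at and 1456174_x_at), each day alone (1450976_at and 1420760_s_at) and the trended variance (1420760_s_at). At E14.5 the groups overlapped on 1423413_at, with KO ratios of 0.880, 0.970, 0.974 and 1.04 against 1.04 and 0.965 (log2 fold change -0.05). The KO effects of the days differed by -1.21 (limma adjusted p = 0.0317), a call kept in 4 of 12 fits with 1 array left out and 4 of 6 other settings. Clu, a secreted chaperone, fell to 0.404 ± 0.0955 (SD, n = 4, limma adjusted p = 0.0326), a call kept in 5 of 12 such fits and 4 of 8 other settings and not made on its other 3 probe sets. On the probe sets that passed, Ndrg1 and Clu were lower in all 4 KO of E16.5, as Myc was. These probe sets were picked for passing, so low values in the KO follow in part from the choice. On the remaining Ndrg1 probe set, 1450977_s_at, the log2 fold change was -0.38 (limma adjusted p = 0.172). There KO_591D, at 0.917, lay between the wildtype values. A link between Myc and these genes was not tested. Of the 11 genes of this list 7 were lower by any size, beside 42.5% of all genes. As lower, 2 of the 11 passed, beside 2.15% of all genes.

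Of 13 measured targets of Wnt signaling outside the network, 6 were lower at the earlier day and 5 at the later, and none passed at either day. At E14.5 9 were lower without KO_540G, and 10 with the mean of each gene's probe sets. Sox9, a factor of progenitors and ducts, was at 0.665 ± 0.133 at E14.5 and, by E16.5, at 0.694 ± 0.0808 (SD, n = 4, limma adjusted p = 0.535 and 0.139). Rnf43, a ubiquitin ligase that limits Wnt receptors, was at 0.613 ± 0.298 at E14.5, and the adhesion receptor Cd44 was at 2.61 ± 1.44 at E16.5 (limma adjusted p = 0.653 and 0.143). Ctnnb1, the targeted gene, has 3 probe sets whose place relative to the deleted exons is not known here, so they do not check the deletion. Their log2 fold changes were -0.14, 0.27 and -0.26 at E14.5 and -0.05, -0.51 and -0.35 at E16.5, and none passed.

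The 4 KO of E14.5 stood in the same order in several of these readings. From lowest to highest, Mycn 1417155_at and Myc placed them as KO_540G, KO_615B, KO_540C and KO_615A. The median log2 ratio of the ribosome list was -0.935, -0.404, -0.349 and -0.060 in these pancreata and that of the proliferation list -0.734, -0.526, -0.342 and -0.094. The spread of the arrays followed the same order, with an interquartile range of all log2 ratios of 0.414, 0.278, 0.237 and 0.199. The wildtype arrays had 0.110 and 0.111, but their ratios are taken to their own mean. Their range is thus narrowed by construction and is no measure to set the KO against. Epithelial and duct markers had medians of -0.635, -0.193, -0.229 and 0.116, in which the middle pair changed places. Mesenchyme markers, of which 12 of 12 were higher at E14.5, had medians of 0.467, 0.533, 0.608 and 0.215. The part of array spread and of these cell types in the values of Myc, Mycn and their targets was not tested.

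At E16.5 Myc was lowest in KO_541L, then in KO_541J, KO_591D and KO_591C, and in that order the mesenchyme markers had medians of 1.073, 0.629, 0.226 and 0.103 and the acinar markers of -3.473, -2.647, -1.143 and -1.872. Of 13 measured acinar markers 12 were lower at this day (7 past the limit), of 12 mesenchyme markers 11 were higher (2 past the limit), and of 9 neuron and glia markers 8 were higher (2 past the limit). Over all genes 2.15% passed as lower and 0.879% as higher. Without WT_628G or without WT_622A, 3 acinar markers passed, and 4 without KO_541J. Mesenchyme calls ran from 0 without WT_622A to 5 without KO_591D, with 1 without any other array of the day, and 8 of 12 were higher without WT_628G. Neuron and glia markers had 4 higher calls without KO_591D and 0 without any other array of the day. The wildtype pancreata differed as well. WT_622A, with the higher Myc, had medians of 0.342 for epithelial and duct markers and 0.326 for proliferation genes, and WT_628G had -0.448 and -0.422. For the proliferation list this decided the direction: 11 of 17 were lower with both wildtype, 14 without WT_628G (median -0.237) and 3 without WT_622A (median 0.428). With the mean of each gene's probe sets and both wildtype it was 4 of 17 (median 0.064). Mycn 1417155_at, by contrast, placed the E16.5 KO in another order, with KO_541L lowest and KO_541J highest. The part of acinar, epithelial and mesenchymal cells in the Myc values was not tested.

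**Figure D4:**
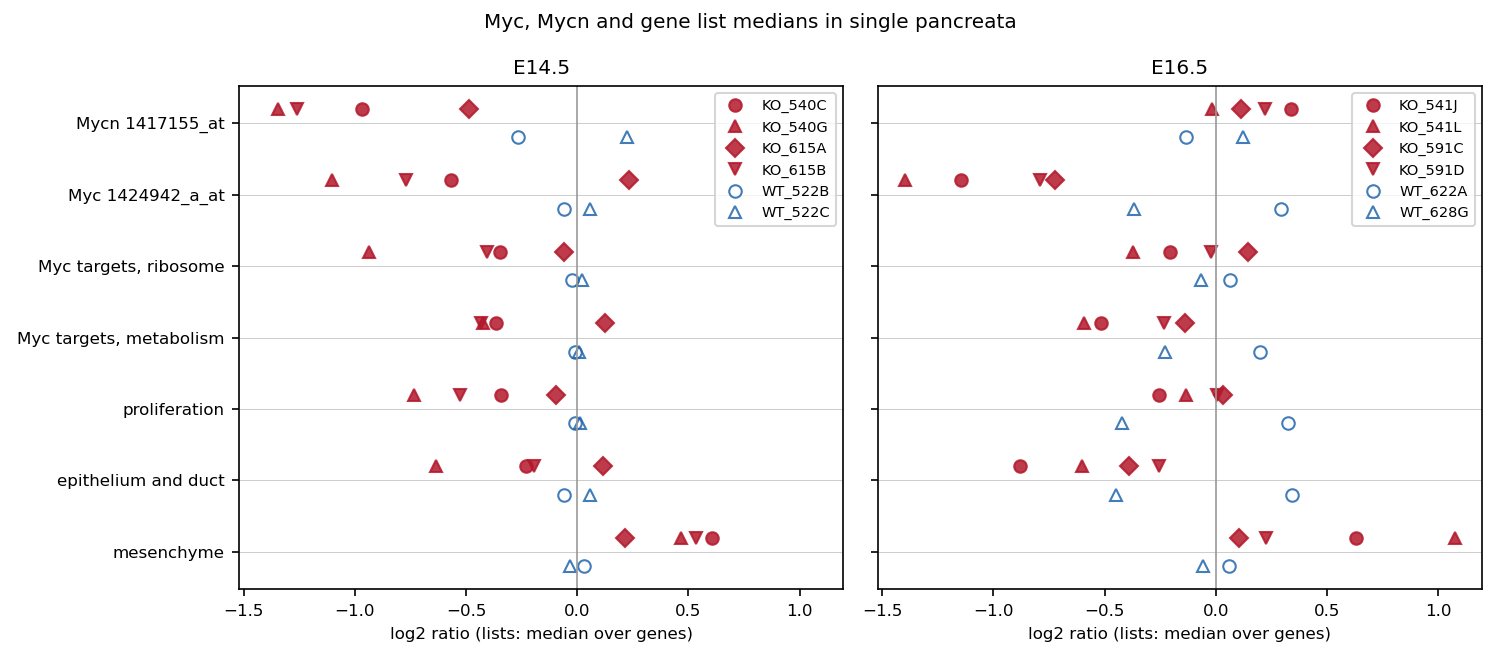
Log2 ratio of Mycn 1417155_at and Myc, and median log2 ratio of gene lists (x axis), in single KO (filled red) and wildtype (open blue) pancreata at E14.5 and E16.5. Symbols identify the pancreas within a panel. KO_540G (triangle pointing up) is lowest at E14.5 for Mycn, Myc, the ribosome list (-0.935) and the proliferation list (-0.734), and at E16.5 the wildtype pancreata lie apart for proliferation (0.326 and -0.422).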

How the data were processed

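RNA of each pancreas was amplified in 2 rounds and hybridised to Affymetrix MOE430 2.0 arrays. The authors used RMA in GeneSpring and set each signal against the mean of that day's wildtype arrays. The deposited values are these linear ratios (both wildtype values add up to 2, within 3e-07, on each day). Genome build and probe positions are not given in the sources used here. The earlier day is E14.5 in the array names and E14.6 in the deposited design. Of 45101 probe sets, 64 controls were left out. The 4 groups were fitted on log2 ratios (limma 3.58.1, R 4.3.3, 8 residual degrees of freedom), with Benjamini-Hochberg adjustment over 45037 probe sets and a limit of 0.05. An exact rank test of 4 against 2 that counts both directions cannot go below 0.133. What the numbers in pancreas names mark is not stated. Both wildtype pancreata of E14.5 share a number, as do pairs of KO, and no KO shares one with a wildtype. Arrays that share a number may not be independent. The limma p values rest on a spread within groups that is pooled over the 4 groups of both days and moderated over probe sets.

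Members and the 19 gene lists (219 of 242 genes matched) were chosen with earlier results of these data known. Named are all members, genes drawn from those of each list past the limit (at most 4) or else the 2 with the smallest p at a day, 3 neighbours of each Myc and Mycn probe set, and Ctnnb1. Odc1, Srm and Cad fall outside this rule and were named after their values were seen. As alternatives, the variance was trended and made robust, each day was fitted alone, and there were quantile normalization, median centring, array weights, the name number as a random block, the methods' t-test, fewer probe sets, another choice of probe sets and leaving out each array. Gene positions and promoters come from RefSeq tables of GRCm38.p6, in which Myc had no promoter entry. Figures were drawn with matplotlib 3.10.9.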

Additional observations from a re-analysis of the deposited data

Results flagged for a closer look

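Within groups of 4 KO, 1 pancreas stood far from the other 3 in 7 of 92 groups examined, where chance gives about 1 in 20, or 4.6. The size of each gap is given as its share of the group's range. On Mycn 1425923_at at E16.5 KO_591D was at 1.30 and the other KO at 1.06 to 1.09 (0.862). On Mxd4 1434378_a_at at E16.5 KO_591D was at 1.02 and the others at 1.249 to 1.27 (0.922).

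The remaining gaps were in list medians of log2 ratios. For regulators of Myc stability at E14.5 KO_540G was at -0.297 and the others at -0.026 to -0.019 (0.975). For Myc targets of metabolism and translation at E14.5 KO_615A was at 0.123 and the others at -0.434 to -0.365 (0.876). For cell cycle targets at E16.5 KO_591C was at 0.227 and the others at 0.035 to 0.064 (0.849). For Wnt targets at E14.5 KO_615B was at -0.096 and the others at 0.035 to 0.046 (0.923). For endocrine markers at E14.5 KO_615A was at 0.047 and the others at 0.418 to 0.456 (0.907).

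On Mycl 1434777_at the KO were lower than both wildtype pancreata at E14.5 and higher than both at E16.5. The difference of 0.327 in log2 between the KO effects had an unadjusted p of 0.0608 and a limma adjusted p of 0.517, so it did not pass.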

How the results depend on the processing

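With 2 wildtype pancreata per day, 1 array can move a value, and ratios hide how dim a probe set is. The count of member probe sets called was 0 as reported and in the alternatives tried except at E16.5, where it was 1 with array weights and 0 to 1 with 1 array left out (Mnt 1418192_at without KO_591D or KO_540G, Mxd4 1434378_a_at without WT_628G). Leaving out a wildtype array left 1, assumed to vary like the other groups. Of the fold changes of members under the alternatives, 1562 stayed on their side of the limit and 4 passed it. None changed sign with an unadjusted limma or t-test p under 0.05 on either side. In the fits with 1 array left out, 67 rounded fold changes had another sign than the main fit. A main value that rounds to 0 counts here as another sign.

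Over all probe sets the calls of 5 at E14.5, 1182 at E16.5 and 157 between the days became 0, 86 and 14 with a trended and robust variance, 14 and 159 with each day alone, 9, 71 and 6 after quantile normalization and 30, 2380 and 580 with array weights. At E14.5 they became 3 after median centring and 11 with the name number as a random block. The methods' t-test, run here on each day over all 45037 probe sets and not, as in the methods, after a filter on fold, gave 0 and 0 adjusted calls, with 2269 and 5539 at an unadjusted p under 0.05. With 1 array left out the counts ran from 1 (WT_522B left out) to 19 (KO_615A left out) at E14.5, from 404 (without KO_541J) to 2862 (without KO_591D) at E16.5 and from 8 (without WT_522B) to 408 (without KO_591D) between the days.

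With the mean of a gene's probe sets the list median moved to -0.097 for coactivators at E14.5 (-0.153 on 1 probe set), 0.137 for corepressors at E16.5 (0.091) and -0.058 for Wnt targets at E14.5 (0.019). Leaving out each array, tried on all 19 lists and on the called list genes after seeing the data, moved these E16.5 medians by more than the spread between KO pancreata, between -0.237 and 0.428 for proliferation, -0.24 and 0.162 for coactivators, -0.05 and 0.295 for cell cycle targets, -0.066 and 0.07 for regulators of stability, 0.076 and 0.151 for corepressors, -0.268 and -0.111 for repressed genes, -0.844 and -0.007 for epithelial and duct markers and -0.283 and 0.082 for erythroid markers. At E14.5 the ranges were -0.01 to 0.076 for the members (1 probe set a gene), -0.114 to 0.115 for the Mlx branch, -0.16 to -0.102 for coactivators, -0.051 to 0.067 for Wnt targets, 0.053 to 0.222 for endothelial markers and 0.165 to 0.294 for leukocyte markers. The cause was not tested. No paired analysis was possible because replicate numbers only name the arrays and no KO shares a name number with a wildtype.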
